A study of Mus musculus with 7 samples.

Results

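The mitochondrially encoded genes are the 37 gene records that the deposited gene count table places on chrM, the mitochondrial DNA, of 38924 gene records in all. They were chosen by position alone, and comprise 13 protein-coding (mRNA) genes, 2 ribosomal RNA (rRNA) genes and 22 transfer RNA (tRNA) genes. On the plus strand, as the gene models give it, lie 28 of them, and the other 9 lie on the minus strand: mt-Nd6 and the 8 tRNA genes mt-Tq, mt-Ta, mt-Tn, mt-Tc, mt-Ty, mt-Ts1, mt-Te and mt-Tp. A second deposited set of counts, reads per exon bin, holds the same genes as 31 of 37718 records, with 43 of 359565 bins. Of these records, 5 join 11 neighbouring genes of one strand that share bases: mt-Nd1 with mt-Ti, mt-Nd2 with mt-Tw, mt-Atp8 with mt-Atp6 and mt-Co3, mt-Nd4l with mt-Nd4, and mt-Ts2 with mt-Tl2.

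Polyadenylated RNA of dissected adult mouse hippocampus was sequenced. The groups are Ammon's horn of mice homozygous for a deletion of Khdrbs3 (3 libraries, called knockout), wild-type dentate gyrus (1 library) and wild-type Ammon's horn (3 libraries). The labels of all 7 libraries name the Khdrbs3 (T-STAR) null allele, crossed back to C57Bl6 for 8 generations, as the strain background, and no treatment was given. Ammon's horn holds the CA fields of the hippocampus, and Khdrbs3 encodes a protein that binds RNA. The labels do not say whether a library came from a separate animal, so p-values measure the spread between libraries, which may be technical.

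The mitochondrial genome is transcribed from each strand into long precursors, and the tRNAs that lie between most of the mRNA and rRNA genes are cut out to release them. Short poly(A) tails are added to most of the mRNAs, while mature tRNAs carry none, so a library made from polyadenylated RNA is not designed to hold mature tRNAs. The mRNAs encode subunits of respiratory complexes I, III and IV and of ATP synthase, which neurons rely on for ATP. Copies of parts of this genome also lie in nuclear chromosomes, and reads that match both cannot be placed uniquely.

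Each gene-table library held 50230733 to 67692326 counts, and the exon bins held 29698245 to 39904606, summed over bins. The bin of the 2 bases shared by mt-Nd1 and mt-Ti held 118 to 160 reads per library, so a read can be counted in several bins. Exon-bin reads of a record or library, below, are such sums of bin counts and can exceed the number of reads. In the second exon bin of Khdrbs3 the knockout libraries had 6, 9 and 7 reads and the dentate gyrus library had 506. The wild-type Ammon's horn libraries had 808, 1103 and 964, so the loss of this bin matched the labels. Over the whole gene, the gene table held 198, 203 and 197 CPM (counts scaled to library size) of Khdrbs3 in knockout. That was higher than the 79.1 CPM in dentate gyrus and the 142, 142 and 135 CPM in wild-type Ammon's horn. Summed over 12 choroid plexus markers, knockout libraries 1, 2 and 3 had 816, 24.0 and 757 CPM. The dentate gyrus library had 279 CPM, and wild-type libraries 1, 2 and 3 had 159, 44.4 and 27.0 CPM. Knockout libraries 1 and 3 therefore stood apart. Below, the count of called genes in the gene table is also given without them. For some exon-bin records the log2 fold change is given without them too. Summed over 6 CA1 neuron markers, the level was 545 to 583 CPM in knockout, 86.2 CPM in dentate gyrus and 596 to 616 CPM in wild-type Ammon's horn libraries. Over 7 oligodendrocyte markers it was 3405 to 3639 CPM in knockout, 1338 CPM in dentate gyrus and 3984 to 4151 CPM in wild-type Ammon's horn. In such bulk samples, fewer cells of a type and less RNA per cell cannot be told apart.

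The results turn on 8 tRNA genes, whose RNA sequences are shown as DNA letters, 5′ to 3′, with the anticodon in capitals, so that their length and their setting on the map can be read beside the counts. The sequences come from the GENCODE M21 transcripts, on build mm10. They belong to mt-Tl1 (leucine, chrM:2676-2750, plus strand), mt-Tq (glutamine, chrM:3772-3842, minus), mt-Tw (tryptophan, chrM:4950-5016, plus), mt-Ta (alanine, chrM:5018-5086, minus), mt-Tn (asparagine, chrM:5089-5159, minus), mt-Tc (cysteine, chrM:5192-5257, minus), mt-Ty (tyrosine, chrM:5260-5326, minus) and mt-Tk (lysine, chrM:7700-7764, plus). All are 65 to 75 bases long.
mt-Tl1: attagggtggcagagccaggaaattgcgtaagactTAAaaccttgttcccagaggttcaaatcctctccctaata
mt-Tq: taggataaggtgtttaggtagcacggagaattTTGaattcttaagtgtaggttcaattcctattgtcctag
mt-Tw: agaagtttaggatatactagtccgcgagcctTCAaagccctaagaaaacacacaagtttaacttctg
mt-Ta: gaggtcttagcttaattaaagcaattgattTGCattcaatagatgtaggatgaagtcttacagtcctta
mt-Tn: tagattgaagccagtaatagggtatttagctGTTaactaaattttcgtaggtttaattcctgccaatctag
mt-Tc: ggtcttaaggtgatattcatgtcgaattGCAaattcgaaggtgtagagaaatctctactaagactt
mt-Ty: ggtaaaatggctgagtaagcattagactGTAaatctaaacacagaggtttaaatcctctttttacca
mt-Tk: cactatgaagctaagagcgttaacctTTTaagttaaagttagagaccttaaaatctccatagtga

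By the gene table, mitochondrial counts took a larger share of the knockout libraries, and by the exon bins a smaller one. Each share is of the total of its own counting method. The gene-table totals were the larger, so the shares have unlike denominators and are not fractions of the same reads. In the gene table the share was 13.4%, 14.1% and 11.1% in knockout libraries, 9.87% in the dentate gyrus library and 10.6%, 10.9% and 10.4% in wild-type Ammon's horn libraries. All 3 knockout values lay above all 3 wild-type values, with means of 12.8% ± 1.59 and 10.6% ± 0.206 (SD, n = 3 each) and a difference of 2.21 percentage points (two-sided exact permutation test, p = 0.1, the smallest that 3 against 3 allows). In the exon bins the share was 3.45%, 2.75% and 3.04% in knockout libraries, 2.70% in the dentate gyrus library, and 3.68%, 3.75% and 3.54% in wild-type Ammon's horn libraries. Here all 3 knockout values lay below all 3 wild-type values, with means of 3.08% ± 0.354 and 3.66% ± 0.110 (SD, n = 3 each) and a difference of -0.578 percentage points (exact p = 0.1). The direction thus reversed with the counting method, for the same libraries. For the single dentate gyrus library the exact 95% binomial intervals, which cover counting error only, were 9.87% to 9.88% in the gene table and 2.69% to 2.70% in the exon bins.

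**Figure D1:**
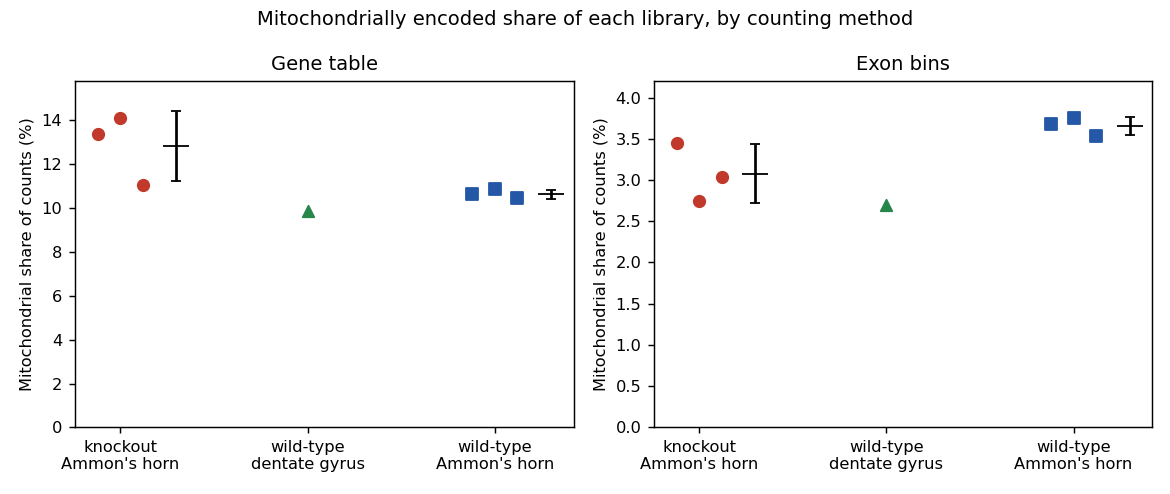
Share of each library's counts that fell on mitochondrially encoded genes (y axis, %), in the gene table (left) and the exon bins (right), with 1 point per library and a bar for the mean ± SD of the groups of 3. The knockout points lie above the wild-type Ammon's horn points on the left (11.1% to 14.1% against 10.4% to 10.9%) and below them on the right (2.75% to 3.45% against 3.54% to 3.75%).

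The counting methods also differed by strand. In the gene table the 9 minus-strand genes took 0.604%, 0.575% and 0.460% of knockout counts, 0.399% of dentate gyrus counts, and 0.273%, 0.223% and 0.211% of wild-type Ammon's horn counts. The knockout libraries lay above the wild-type ones, at means of 0.546% ± 0.0764 and 0.236% ± 0.0327 (SD, n = 3 each; exact p = 0.1). In the exon bins the same genes took 0.0769% ± 0.0134 in knockout and 0.0782% ± 0.00365 in wild-type Ammon's horn libraries (SD, n = 3 each), groups that overlapped (exact p = 0.8). On the plus strand the gene-table share was 12.3% ± 1.52 in knockout and 10.4% ± 0.204 in wild-type Ammon's horn (SD, n = 3 each; exact p = 0.2), and the exon-bin share was 3.002% ± 0.341 and 3.58% ± 0.113 (exact p = 0.1). The exon-bin share of the plus strand was lower in all 3 knockout libraries than in any wild-type Ammon's horn library.

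The difference of the minus-strand genes in the gene table lay largely in their tRNA genes. The 8 minus-strand tRNA genes took 0.389% ± 0.0607 of counts in knockout, 0.297% in dentate gyrus and 0.105% ± 0.0357 in wild-type Ammon's horn libraries. The 14 plus-strand tRNA genes took 0.0817% ± 0.0360 in knockout, 0.0504% in dentate gyrus and 0.0260% ± 0.00321 in wild-type Ammon's horn libraries (SD, n = 3 for each group with an error). All 22 together were 3.61-fold higher in knockout, with 0.539%, 0.504% and 0.371% in knockout libraries, 0.347% in the dentate gyrus library, and 0.172%, 0.115% and 0.105% in wild-type Ammon's horn libraries. Both genotypes of Ammon's horn were separate in this share, and the dentate gyrus library, which is wild type, lay above all 3 wild-type Ammon's horn libraries. The 13 mRNA genes took 11.6% ± 1.44 in knockout and 9.60% ± 0.232 in wild-type Ammon's horn libraries (exact p = 0.1), and the 2 rRNA genes took 0.816% ± 0.0872 and 0.914% ± 0.162 (exact p = 0.4).

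Gene by gene, each table was tested with the quasi-likelihood test of edgeR across all its genes, with p-values adjusted by Benjamini-Hochberg and called below 0.05. All 37 mitochondrial genes passed the low-count filter of the gene table. In knockout against wild-type Ammon's horn, 7 rose and 0 fell: the mRNAs mt-Nd2 and mt-Co1 and the tRNAs mt-Tl1, mt-Tn, mt-Tq, mt-Tw and mt-Ty. Over all 22830 genes tested, 0.0657% were called higher and 0.00876% lower (0.0745% in either direction). The log2 fold change was above 0 for 30 of the 37, with a median of 0.32, against 0.0015 over all genes tested. At an unadjusted p below 0.05 there were 20 of the 37, and 0 of them were lower, against 1914 of all 22830 genes in either direction. Without knockout libraries 1 and 3, 16 mitochondrial genes were called, all higher, against 23 higher and 2 lower of all 24052 genes tested. Knockout was then the single library 2, assumed to vary like the wild-type Ammon's horn libraries, and the calls gained include mt-Tm, mt-Th, mt-Tt, mt-Tl2 and mt-Nd4l, which were highest in that library.

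**Figure D2:**
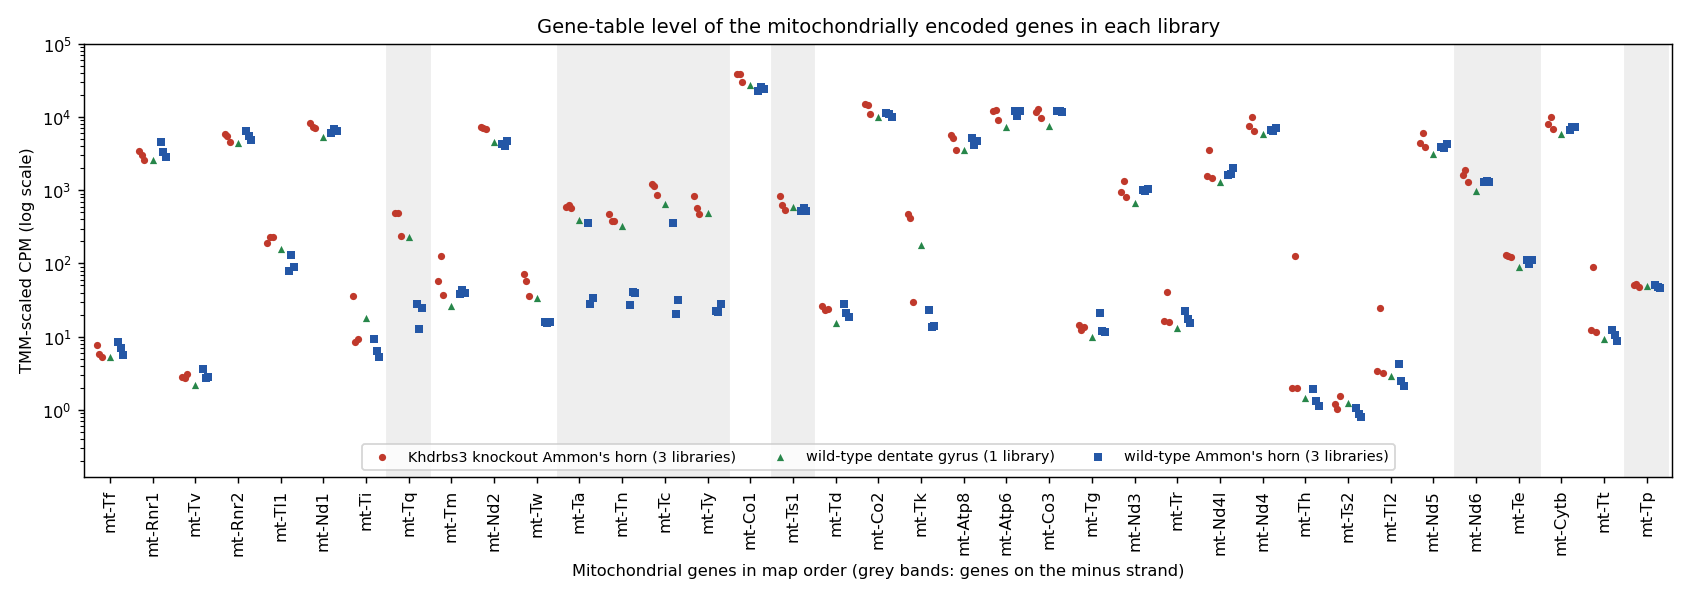
Gene-table level of each mitochondrially encoded gene (y axis, CPM scaled by the trimmed mean of M-values, log scale) in map order, with 1 point per library and grey bands for genes on the minus strand. The separation of knockout from wild-type Ammon's horn is widest at mt-Tq, mt-Tn and mt-Ty, where the dentate gyrus point also lies above the wild-type Ammon's horn points.

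The rRNA genes did not pass the test. The small rRNA, mt-Rnr1, was counted at 3401, 2998 and 2585 CPM in knockout, 2581 CPM in dentate gyrus and 4542, 3318 and 2843 CPM in wild-type Ammon's horn libraries. The log2 fold change was -0.25 (SE 0.15, adjusted p = 0.686 by edgeR) in overlapping groups. For the large rRNA, mt-Rnr2, it was -0.08 (SE 0.11, adjusted p = 0.879 by edgeR), again with overlap.

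Among the 13 mRNAs, 2 rose, and the log2 fold changes ran between -0.07 for mt-Co3 and 0.69 for mt-Nd2, with a median of 0.25. The mRNA mt-Nd2, for a subunit of complex I (NADH dehydrogenase), had 7233, 7138 and 6826 CPM in knockout, 4565 CPM in dentate gyrus, and 4316, 4080 and 4703 CPM in wild-type Ammon's horn libraries. Its knockout libraries lay close together and above every other library, at a log2 fold change of 0.69 (SE 0.06, adjusted p = 0.00066 by edgeR). The mRNA mt-Co1, for the catalytic subunit of complex IV (cytochrome c oxidase), had 38519, 38311 and 30474 CPM in knockout, 27119 CPM in dentate gyrus, and 22956, 25804 and 23941 CPM in wild-type Ammon's horn libraries. These groups did not overlap either, at a log2 fold change of 0.56 (SE 0.08, adjusted p = 0.0387 by edgeR). Leaving out any of 4 libraries ended the call of mt-Co1 (knockout library 1 or wild-type library 1, 2 or 3; highest adjusted p = 0.208). Its log2 fold change without 1 library was 0.51 to 0.66. It was the most counted mitochondrial gene, with 27.9%, 26.4% and 27.9% of mitochondrial gene-table counts in knockout, 29.1% in dentate gyrus, and 21.2%, 24.3% and 22.6% in wild-type Ammon's horn libraries.

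The other 6 complex I mRNAs had log2 fold changes between 0.04 for mt-Nd3 and 0.33 for mt-Nd4l in knockout, with no call. For mt-Nd1 the value was 0.23 (SE 0.07, adjusted p = 0.391 by edgeR), although its knockout libraries, at 8371, 7415 and 7086 CPM, lay above its wild-type Ammon's horn libraries, at 6037, 6950 and 6552 CPM. The minus-strand mt-Nd6 gave 0.28 (SE 0.11, adjusted p = 0.519 by edgeR). Cytochrome b of complex III, mt-Cytb, gave 0.22 (SE 0.11, adjusted p = 0.612 by edgeR). The complex IV subunit mt-Co2 gave 0.32 (SE 0.10, adjusted p = 0.445 by edgeR), and passed the test without knockout library 3 (0.46, adjusted p = 0.0191). For the ATP synthase subunits mt-Atp6 and mt-Atp8 the values were -0.03 and 0.04. Of these 11 mRNAs, mt-Nd1 was the one whose groups did not overlap.

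The largest fold changes were among the tRNAs. The tRNA for tyrosine, mt-Ty, was counted 49934, 36007 and 24428 times in knockout, 29871 times in dentate gyrus, and 1167, 1501 and 1686 times in wild-type Ammon's horn libraries. In scaled counts, that is 634 ± 186 CPM in knockout and 24.1 ± 3.63 CPM in wild-type Ammon's horn (SD, n = 3 each). Its log2 fold change was 4.72 (SE 0.20, adjusted p = 2.8e-06 by edgeR). The dentate gyrus library lay inside the knockout range.

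The tRNA for glutamine, mt-Tq, was counted 29438, 30448 and 11963 times in knockout, 14181 times in dentate gyrus, and 1476, 873 and 1458 times in wild-type Ammon's horn libraries. Its log2 fold change was 4.23 (SE 0.34, adjusted p = 0.00066 by edgeR). The tRNA for asparagine, mt-Tn, was counted 28546, 23813 and 19417 times in knockout, 19991 times in dentate gyrus, and 1407, 2797 and 2389 times in wild-type Ammon's horn libraries, with a log2 fold change of 3.54 (SE 0.15, adjusted p = 2.8e-06 by edgeR). For both genes every knockout library and the dentate gyrus library lay far above the wild-type Ammon's horn libraries. On the plus strand, mt-Tw, for tryptophan, had 72.4, 57.5 and 35.4 CPM in knockout, 33.5 CPM in dentate gyrus, and 15.6, 15.2 and 15.7 CPM in wild-type Ammon's horn libraries (log2 fold change 1.83, SE 0.20, adjusted p = 0.0054 by edgeR). Its wild-type Ammon's horn libraries lay close together, and all others were higher.

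The leucine tRNA mt-Tl1 had 192, 232 and 231 CPM in knockout, 159 CPM in dentate gyrus, and 77.7, 130 and 89.7 CPM in wild-type Ammon's horn libraries. It rose by a log2 fold change of 1.14 (SE 0.16, adjusted p = 0.0387 by edgeR) with no overlap of the groups. Leaving out knockout library 1 or 3, or wild-type library 1 or 3, ended its call (highest adjusted p = 0.174), at a log2 fold change of 0.99 to 1.38 over all 6 libraries left out in turn. Of the 7 calls, 6 lay between mt-Tq and mt-Co1, chrM:3772-6872, a stretch of 9 genes marked out after their values were seen. A read that reaches several neighbouring genes may be counted to each of them, so these calls need not be separate. How often that happened was not tested.

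In that stretch the tRNAs for alanine and cysteine, mt-Ta and mt-Tc, were divided among the wild-type libraries. The tRNA mt-Ta was counted 35267, 39141 and 28823 times in knockout, 23934 times in dentate gyrus, and 19027, 1910 and 1991 times in wild-type Ammon's horn libraries. The tRNA mt-Tc was counted 71309, 70155 and 44174 times in knockout, 40335 times in dentate gyrus, and 18750, 1423 and 1862 times in wild-type Ammon's horn libraries. Every knockout library lay above every wild-type Ammon's horn library for both, and wild-type library 1 stood far above the other two. Neither passed the test, at log2 fold changes of 2.08 (SE 0.78, adjusted p = 0.521 by edgeR) for mt-Ta and 2.96 (SE 0.86, adjusted p = 0.391 by edgeR) for mt-Tc. Without wild-type library 1 the values were 4.29 (adjusted p = 6.7e-08) and 5.37 (adjusted p = 2.6e-06), and both were called.

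The lysine tRNA mt-Tk was counted 28227, 26019 and 1496 times in knockout, 11081 times in dentate gyrus, and 1197, 942 and 824 times in wild-type Ammon's horn libraries. Knockout library 3 was close to the wild-type Ammon's horn libraries, and the log2 fold change of 4.20 did not pass the test (SE 0.76, adjusted p = 0.170 by edgeR). It passed without that library (4.74, adjusted p = 1.1e-05) and by DESeq2 (4.20, adjusted p = 0.0067).

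A different set of tRNAs was high in knockout library 2 alone. The histidine tRNA mt-Th was counted 118, 7803 and 101 times in knockout, 89 times in dentate gyrus, and 100, 92 and 67 times in wild-type Ammon's horn libraries, so that library 2 had 63.0 times the CPM of the next library. In the same library mt-Tt (threonine) had 7.05 times, mt-Tl2 (leucine) 5.73 times, mt-Tr (arginine) 1.79 times and the mRNA mt-Nd4l 1.76 times the CPM of the next highest library. None of these 5 genes passed the test in all 6 libraries. Other tRNAs showed small differences: mt-Tp (proline, minus strand) had 50.1, 52.4 and 47.5 CPM in knockout, 49.0 CPM in dentate gyrus, and 50.5, 47.8 and 45.5 CPM in wild-type Ammon's horn libraries.

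In 13 of the 37 genes the 3 knockout libraries lay above all 3 wild-type Ammon's horn libraries, and in 0 they lay below. Over all genes tested, 6.87% showed the first pattern and 6.39% the second. The 13 were 3 plus-strand mRNAs, 4 of 14 plus-strand tRNAs and 6 of 8 minus-strand tRNAs. By median log2 fold change, the minus-strand tRNAs stood at 2.52, the plus-strand tRNAs at 1.01, the mRNAs at 0.25 and the rRNAs at -0.17.

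Per length, the mRNAs ran between 2324 CPM per kb for mt-Nd5 and 22457 CPM per kb for mt-Atp8 as a mean over all 7 libraries. The mean levels of the rRNAs were 3331 and 3354 CPM per kb for mt-Rnr1 and mt-Rnr2. Between tRNAs the mean level ran between 18.6 CPM per kb for mt-Ts2 and 9216 CPM per kb for mt-Tc. Reads that overlap a gene only in part may be counted to it in full. That would raise values per kb most for short genes, such as mt-Atp8 and the tRNAs. Within the knockout libraries mt-Tc averaged 16151 ± 2634 CPM per kb, and in the wild-type Ammon's horn libraries 2065 ± 2898 CPM per kb (SD, n = 3 each), with wild-type library 1 far above the other two.

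The exon bins did not hold these tRNA counts. Of the 18 tRNA genes with a record of their own, 12 had 0 reads in every library, mt-Tl1, mt-Ta, mt-Ty and mt-Tk among them, which allows up to 3 reads, or 0.0752 to 0.101 CPM. Another 3, mt-Tq, mt-Tm and mt-Tt, had at most 1 read in any library. For mt-Tn there were 3, 3 and 3 reads in knockout, 3 in dentate gyrus, and 3, 3 and 2 in wild-type Ammon's horn libraries. For mt-Tc there were 9, 4 and 4 reads in knockout, 7 in dentate gyrus, and 5, 8 and 3 in wild-type Ammon's horn libraries. Among these 18 the exception was mt-Tp. It had 2102, 1854 and 1779 reads in knockout, 2151 in dentate gyrus, and 1857, 2344 and 2072 in wild-type Ammon's horn libraries. In joined records, the bin of mt-Tw alone held 187, 174 and 171 reads in knockout and 129 in dentate gyrus. It held 204, 246 and 205 in wild-type Ammon's horn libraries (log2 fold change -0.23, SE 0.11, adjusted p = 0.929 by edgeR). The bin of mt-Ti alone held 135, 129 and 137 reads in knockout, 148 in dentate gyrus, and 155, 135 and 101 in wild-type Ammon's horn libraries. The tRNA differences of the gene table were thus not seen in the bins, although the gene table held 24428 to 49934 counts of mt-Ty in the knockout libraries. Why the bins lack those reads was not tested. The reads that the bin counts set aside as ambiguous were 1.73% to 2.01%, and those in no bin 3.52% to 4.83%. Both shares are of the sum of bin counts, ambiguous reads and reads in no bin, not of the whole library. Reads left out of the bins for any other reason are not in that sum.

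Over records, 13 passed the filter of the exon-bin table in the comparison of knockout with wild-type Ammon's horn, and 2 fell and 0 rose (edgeR; 2 fell by DESeq2 also). Over all 15288 records tested, 0.0196% were called lower and 0.0327% higher (0.0523% in either direction) by edgeR. By DESeq2, 24 of all these records were called lower and 16 higher. The joined record of mt-Nd2 and mt-Tw had 82735, 77326 and 58858 reads in knockout, 61221 in dentate gyrus, and 104069, 124415 and 109512 in wild-type Ammon's horn libraries. Every knockout library had fewer reads than every wild-type Ammon's horn library, and the log2 fold change was -0.57 (SE 0.07, adjusted p = 0.0059 by edgeR). The joined record of mt-Nd1 and mt-Ti had 106819, 110003 and 97875 reads in knockout, 82548 in dentate gyrus, and 135359, 152405 and 158258 in wild-type Ammon's horn libraries, with a log2 fold change of -0.44 (SE 0.05, adjusted p = 0.0079 by edgeR). The groups of this record did not overlap either. Without wild-type library 1 neither record was called (adjusted p = 0.0596 for mt-Nd2 with mt-Tw and 0.0788 for mt-Nd1 with mt-Ti), and without knockout library 1 the second was lost (adjusted p = 0.0742). Without knockout libraries 1 and 3, which leaves 1 knockout library, only the effects are given. The log2 fold changes were then -0.61 for mt-Nd2 with mt-Tw and -0.50 for mt-Nd1 with mt-Ti.

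The record of mt-Co1 had 362572, 286646 and 280887 reads in knockout, 285821 in dentate gyrus, and 349647, 529462 and 423261 in wild-type Ammon's horn libraries. Its log2 fold change of -0.40 did not pass the test (SE 0.08, adjusted p = 0.242 by edgeR). Without knockout libraries 1 and 3 the value was -0.65. Both mt-Nd2, which rose in the gene table and fell in the bins, and mt-Co1 thus had values of opposite sign in the counting methods. The same held for the values of mt-Nd1, mt-Nd5, mt-Nd6 and mt-Cytb, of which the joined record of mt-Nd1 was called in the bins and none in the gene table. The minus-strand mt-Nd6 had 28898, 21280 and 20981 reads in knockout, 19364 in dentate gyrus, and 22801, 27188 and 27385 in wild-type Ammon's horn libraries (log2 fold change -0.06, SE 0.10). The joined record of mt-Atp8, mt-Atp6 and mt-Co3 had 11245, 12899 and 1127 reads in knockout, 2967 in dentate gyrus, and 2732, 2839 and 3652 in wild-type Ammon's horn libraries. Knockout library 3 was the lowest of all, and the log2 fold change of 1.44 (SE 0.53, adjusted p = 0.588 by edgeR) passed the test only without that library among the libraries left out in turn (1.95, adjusted p = 2.4e-05).

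In single bins, 22 of the 43 were tested, and 1 rose and 3 fell (edgeR), against 0.0468% higher and 0.0204% lower (0.0672% in either direction) of 166757 bins tested. The bins that fell were the first bins of the mt-Nd1, mt-Nd2 and mt-Co1 records, which hold nearly all of their reads (log2 fold changes -0.44, -0.57 and -0.40). The call of the mt-Co1 bin was lost without knockout library 2 (adjusted p = 0.0631) or 3 (adjusted p = 0.0925). The bin that rose is the 43 bases, chrM:7927-7969, in which mt-Atp8 and mt-Atp6 overlap. It held 1721, 1550 and 70 reads in knockout, 137 in dentate gyrus, and 247, 240 and 192 in wild-type Ammon's horn libraries. Knockout library 3 was the lowest of all 7, against the direction of the log2 fold change of 2.30 (SE 0.42, adjusted p = 0.0139 by edgeR), and without knockout library 1 the adjusted p was 0.379. The 3 bins of mt-Ts2 with mt-Tl2 held identical counts in each library.

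The ratio of the gene-table count to the exon-bin reads of a record was then compared between libraries. Over 5141 genes outside the mitochondrial genome the median ratio was 1.22 to 1.29 in the 7 libraries. For 3 records, mt-Co2, mt-Atp8 with mt-Atp6 and mt-Co3, and mt-Nd3, the ratio was between 147 and 2258. The 5 genes of these records took 31.0% to 38.6% of the mitochondrial counts of the gene table and 0.261% to 1.65% of the mitochondrial reads of the bins. For mt-Co2 the gene table had 903192, 919058 and 554465 counts in knockout, 615573 in dentate gyrus, and 600638, 767817 and 602295 in wild-type Ammon's horn libraries. Its bin held 1281, 3520 and 1171 reads in knockout, 1447 in dentate gyrus, and 659, 1828 and 492 in wild-type Ammon's horn libraries. Nearly all reads of these genes were absent from the bins in all groups.

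In 5 other records every knockout library had a higher ratio than every wild-type Ammon's horn library, by a wide margin in 3 of them. The share of all records with such a separation of the ratio was not computed. The count of separated records alone therefore does not set the mitochondrial records apart. For mt-Nd2 with mt-Tw the ratio was 5.24, 5.79 and 5.92 in knockout, 4.65 in dentate gyrus, and 2.19, 2.27 and 2.57 in wild-type Ammon's horn libraries. For mt-Co1 it was 6.31, 8.32 and 5.51 in knockout, 5.88 in dentate gyrus, and 3.45, 3.37 and 3.38 in wild-type Ammon's horn libraries. For mt-Nd1 with mt-Ti it was 4.67, 4.20 and 3.68 in knockout, 3.99 in dentate gyrus, and 2.35, 3.15 and 2.47 in wild-type Ammon's horn libraries. All 4 other libraries lay above the 3 wild-type Ammon's horn libraries in each of these records, the wild-type dentate gyrus library included. In mt-Nd5 and mt-Cytb the margin was small. For mt-Nd5 the ratio was 2.35, 4.04 and 2.30 in knockout, 2.27 in dentate gyrus, and 2.25, 2.22 and 2.24 in wild-type Ammon's horn libraries. For mt-Cytb it was 2.21, 3.90 and 2.13 in knockout, 2.09 in dentate gyrus, and 2.11, 2.09 and 2.10 in wild-type Ammon's horn libraries. In both, knockout library 2 was far above the others and knockout libraries 1 and 3 lay just above the wild-type Ammon's horn libraries. Library 2 was also the highest for mt-Nd6 and for mt-Nd4l with mt-Nd4, where the groups overlapped.

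Tested with limma on the log2 ratio of the methods across 15285 records, the knockout effect differed between methods in 0 of 13 mitochondrial records and in 0% of all records. At an unadjusted p below 0.05 there were 3 of the 13 and 844 of all. The difference between the methods in the knockout log2 fold change was 1.28 for mt-Nd2 with mt-Tw (SE 0.11, adjusted p = 0.115 by limma), 0.97 for mt-Co1 (SE 0.16, adjusted p = 0.765) and 0.67 for mt-Nd1 with mt-Ti (SE 0.13, adjusted p = 0.765). These are the 3 below 0.05 before adjustment, and a change that depends on the method was not established for them after it.

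**Figure D3:**
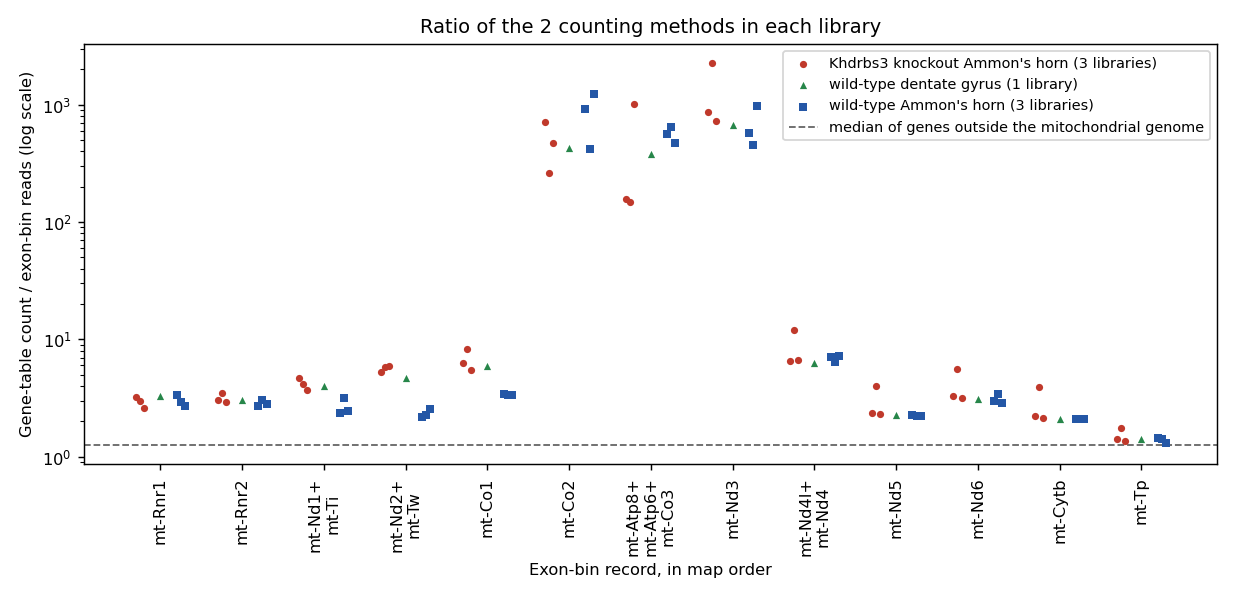
Ratio of the gene-table count to the exon-bin reads (y axis, log scale) for the 13 records with at least 10 bin reads in every library, in map order, with 1 point per library. The dashed line is the median over genes outside the mitochondrial genome, and the records of mt-Nd1, mt-Nd2 and mt-Co1 show knockout and dentate gyrus points above those of wild-type Ammon's horn.

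**Figure D4:**
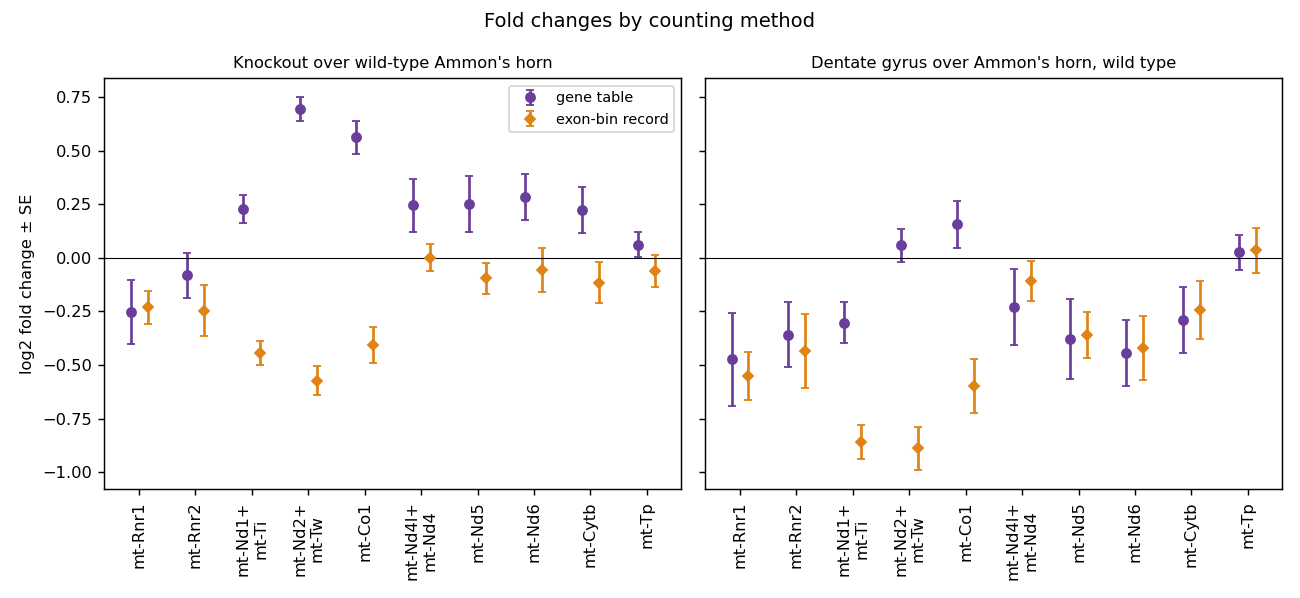
Log2 fold changes (y axis, ± SE) at the records with a ratio below 12, for knockout over wild-type Ammon's horn (left) and wild-type dentate gyrus over Ammon's horn (right). Diamonds are exon-bin records. Circles are single genes of the gene table, so at the joined records they show mt-Nd1, mt-Nd2 or mt-Nd4 alone. On the left the circles of mt-Nd1, mt-Nd2 and mt-Co1 lie above 0 and their diamonds below it, while the rRNAs, mt-Nd5, mt-Nd6, mt-Cytb and mt-Tp lie closer together.

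The comparison of dentate gyrus with Ammon's horn, both wild type, rests on 1 library against 3. The fit used all 7 libraries, so the lone library was assumed to vary like the others, and its comparison shares the wild-type Ammon's horn libraries with that of the knockout. By its gene-table counts, 6 of 37 mitochondrial genes rose and 3 fell (edgeR). Of all 24486 genes tested, 11.2% were called higher and 10.9% lower (22% in either direction). At such shares the number of calls does not set the mitochondrial genes apart. Those that rose were all tRNAs, with log2 fold changes of 4.32 (SE 0.22, adjusted p = 2.0e-06) for mt-Ty, 3.41 for mt-Tk, 3.39 for mt-Tq, 3.17 for mt-Tn, 1.10 for mt-Tw and 0.67 for mt-Tl1. For mt-Tk and mt-Tl1 the call was lost by DESeq2 (adjusted p = 0.0521 and 0.138). The mt-Tl1 call was also lost without wild-type Ammon's horn library 1 (adjusted p = 0.0741) or 3 (adjusted p = 0.089), and with the 4 wild-type libraries alone (adjusted p = 0.0682). The balance turned with the setting, to 4 higher and 5 lower by DESeq2 and to 6 higher and 11 lower with the 4 wild-type libraries alone. Those that fell were the mRNAs mt-Co3 (-0.70, adjusted p = 0.0026), mt-Atp6 (-0.65, adjusted p = 0.011) and mt-Nd1 (-0.30, adjusted p = 0.0443). The mt-Nd1 call was lost without wild-type Ammon's horn library 2 (adjusted p = 0.113) or 3 (adjusted p = 0.061). For mt-Nd2 and mt-Co1, called in the knockout, the dentate gyrus values were 0.06 (adjusted p = 0.639) and 0.16 (adjusted p = 0.358). The median over the 37 genes was -0.23, against -0.01 over all genes tested.

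In the exon bins 5 of 14 records tested fell in dentate gyrus and 0 rose (edgeR). Of all 16263 records tested, 14.5% were called lower and 14.8% higher (29.3% in either direction). With 14 records, the number called in either direction does not set the mitochondrial records apart. The records that fell were mt-Nd2 with mt-Tw (-0.89, SE 0.10), mt-Nd1 with mt-Ti (-0.86, SE 0.08), mt-Co1 (-0.60, SE 0.12), mt-Rnr1 (-0.55, SE 0.11) and mt-Nd5 (-0.36, SE 0.11). Their adjusted p by edgeR lay between 1.2e-05 and 0.0241.

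Nuclear copies were sought by aligning the 37 genes to the annotated transcripts at an identity of at least 85%, since these bear on where reads can be placed. They were found for 17 genes, in 22 annotated genes. A run of 7 copies on mouse chromosome 1, chr1:24611535-24616197, matches mt-Co2 (Gm28661), mt-Atp6 (Gm10925), mt-Co3 (Gm28437), mt-Nd4l (Gm10222) and part of mt-Nd4 (Gm28439) at 100% identity, mt-Nd3 (Gm28438) at 99.7% and part of mt-Co1 (Gm29216) at 99.8%. The records with the highest ratios of the methods are those that this run covers over all or nearly all of at least 1 gene, mt-Nd4l excepted, whose joined record is mainly mt-Nd4. Another run of 3 lies on chromosome 2, chr2:22587291-22590533. It holds Gm13339 at 96.7% of mt-Nd2 over 49.1% of its length, Gm13340 at 97.6% of mt-Co1 and Gm13341 at 95.9% of mt-Co2. Copies outside annotated transcripts could not be seen. On chrM the tRNAs from mt-Tw to mt-Ty lie between mt-Nd2 and mt-Co1. Whether copies of them lie between Gm13340, which ends at chr2:22589647, and Gm13339, which starts at chr2:22590024, was not tested. Cep295 on chromosome 9 matched mt-Tl1, mt-Ta, mt-Tn and mt-Ty at 88.3% to 93.5% identity.

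Whether reads crossed between mt-Co1 and Gm13340 was not tested, and a stretch of 90 bases shows how close they are. It lies at chrM:5382-5471 on the plus strand and chr2:22589504-22589593 on the minus strand (mm10, GENCODE M21 transcripts), with the 2 differing bases in capitals, of 37 in the 1545 bases of the gene.
mt-Co1: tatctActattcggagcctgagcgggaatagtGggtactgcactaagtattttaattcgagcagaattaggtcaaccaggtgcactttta
Gm13340: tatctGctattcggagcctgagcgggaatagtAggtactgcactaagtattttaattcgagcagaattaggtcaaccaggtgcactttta

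Of the copies in these runs, 4 have rows of their own in the gene table, and none passed the test in knockout (edgeR), the closest being Gm13340. Gm13340 was counted 55808, 69187 and 47570 times in knockout, 44173 times in dentate gyrus, and 46422, 62924 and 51836 times in wild-type Ammon's horn libraries, with a log2 fold change in knockout of 0.17 (SE 0.07, adjusted p = 0.549 by edgeR). Gm10222, the copy of mt-Nd4l, was counted 186920, 169134 and 169113 times in knockout, 130418 times in dentate gyrus, and 187411, 177341 and 182808 times in wild-type Ammon's horn libraries. That is more than mt-Nd4l itself, except in knockout library 2, where mt-Nd4l had 221974. Its log2 fold change in knockout was -0.00076 (SE 0.11, adjusted p = 0.999 by edgeR). In dentate gyrus both fell, by 0.55 for Gm10222 (adjusted p = 0.03 by edgeR) and by 0.32 for Gm13340 (adjusted p = 0.0397 by edgeR).

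The gene table could not be read by strand of the read. Among annotated genes nested in a gene of the opposite strand, the inner gene had the higher count in any library in 1 of 1891 pairs, and among those nested on the same strand in 0 of 968. Reads of a gene and of an antisense partner therefore cannot be told apart in that table, and the strand of a mitochondrial gene here is that of its gene model, not of its reads. The minus-strand tRNAs mt-Ta, mt-Tn, mt-Tc and mt-Ty lie between the plus-strand mt-Tw and mt-Co1, so reads of either strand over this stretch would be counted to them.

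Nuclear genes needed to express the mitochondrial genome were listed for comparison: its polymerase and transcription factors, its RNA processing enzymes and its translation factors. Of 52 symbols 48 were found and tested, and 0 passed the test in knockout against wild-type Ammon's horn by edgeR or by DESeq2. Of all 22830 genes, 0.0745% were called by edgeR, and 80 higher and 39 lower by DESeq2. At such shares 0 calls among 48 genes do not set the list apart. At an unadjusted p below 0.05 were 1914 of all genes by edgeR and 1670 by DESeq2, and 1 and 2 of the 48. The log2 fold changes ran between -0.15 and 0.23, 35 were above 0, and the median was 0.03, against 0.0015 over all genes tested. The values farthest from 0 were 0.23 for Tfb1m, a methyltransferase of the small mitochondrial rRNA, 0.23 for Pnpt1, a mitochondrial exoribonuclease, and 0.22 for Mtif2, a mitochondrial initiation factor. In the exon bins 0 of 43 passed, against 0.0523% of all 15288 records. In dentate gyrus 2 rose and 2 fell of 48, against the 11.2% higher and 10.9% lower of all genes given above.

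Choroid plexus markers moved with part of these libraries, and 12 of 12 had a log2 fold change above 0 in knockout with 0 called. Their summed level, given above, was high in knockout libraries 1 and 3. The level of mt-Ty was 841, 578 and 481 CPM in knockout libraries 1, 2 and 3, 482 CPM in the dentate gyrus library, and 22.2, 21.7 and 28.2 CPM in wild-type Ammon's horn libraries 1, 2 and 3. The part of choroid plexus content in the mitochondrial values was not tested beyond the settings given here. With choroid plexus level as a covariate, 11 mitochondrial genes were called in the gene table, all of them higher, against 20 higher and 9 lower of all 22830 genes. The 4 calls gained were mt-Tm, mt-Nd4l, mt-Th and mt-Tt, which were highest in knockout library 2, the one with few choroid plexus marker counts.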

How the data were processed

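Per the labels, libraries of the 7 samples followed Illumina's TruSeq mRNA protocol on RNA from a Qiagen RNeasy Plus kit. Build mm10, DESeq2 1.0.19, bedtools 2.17.0, TopHat2 2.0.8b and Trim Galore 0.3.5 appear in the submitters' processing notes, with no settings. The authors deposited raw counts per gene, and raw counts per exon bin with overlapping genes of one strand joined. Replicates were numbered in the order of the samples.

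Both tables were tested with edgeR 4.0.16 on R 4.3.3 (trimmed mean of M-values scaling, filterByExpr, quasi-likelihood F test), with Benjamini-Hochberg adjustment over the whole table. Exon-bin reads were summed per record. The log2 ratio of the methods, with a prior count of 2, was tested with limma 3.58.1. The steps were tested on simulated data. Alternatives were median-ratio (RLE) scaling, no low-count filter, DESeq2 1.42.0, scaling by genes outside the mitochondrial genome, a choroid plexus covariate, and leaving out each library. Without the low-count filter, genes with at least 1 count over the libraries were kept. Nuclear copies were aligned with blastn to the GENCODE M21 transcripts. Mitochondrial genes named in the text were the called ones, those of the classes and those with libraries apart. The members and lists were chosen with earlier results of these data known. With 3 libraries in each Ammon's horn group and 1 of dentate gyrus, many small differences cannot be resolved.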

Additional observations from a re-analysis of the deposited data

How the results depend on the processing

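The number of mitochondrial genes called in the knockout gene table was 7, and 11 with a choroid plexus covariate. It was 16 without both choroid-rich knockout libraries, a setting chosen after seeing the data. Leaving out 1 library at a time gave 5 to 8. For exon-bin records 2 were called, 7 with no low-count filter, and 0 to 3 leaving out 1 library (1 without knockout library 1 and 0 without wild-type library 1). Of all 22909 records without that filter, 73 were called higher and 49 lower. For single bins 4 were called, 14 with no low-count filter, and 3 to 9 leaving out 1 library (9 without wild-type library 3). Of all 280584 bins without that filter, 201 were called higher and 98 lower. In dentate gyrus, the gene table gave 9, 17 with the 4 wild-type libraries alone (6 higher and 11 lower), and 9 to 10 leaving out 1 library. The exon-bin records gave 5, 8 with no low-count filter, and 5 to 6 leaving out 1 library. The knockout difference in mitochondrial share was 2.21 percentage points (1.58 to 3.10 leaving out 1 library) and reversed to -0.578 by exon-bin counts. That of the plus-strand genes reversed to -0.576 and that of the minus-strand genes to -0.00136. In all these the cause was not tested. Over 27 called genes, records and bins, 24 of 256 settings lost the call and 0 reversed. No paired analysis was possible because the labels give no replicate numbers that the groups share.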
